A study of Homo sapiens with 45 samples.

Results

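The binding maps of TET1 and MBD3 were compared in solvent-treated HEK293T cells, a human embryonic kidney line. Members were all regions of the authors' TET1 and MBD3 peak lists from cells kept in DMSO for 72 h, with sub-peaks of identical start and end counted as 1 region. This gave 7211 TET1 regions and 10137 MBD3 regions, together 17348 of the 53743 regions in the 12 lists of the series. A TET1 and an MBD3 region that overlapped by 1 bp or more were called shared, and the others specific. Every class was then divided by whether it overlapped a region of the CTCF list from DMSO cells, which held 17440 regions.

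Each antibody had 3 libraries, made from sonicated chromatin of DMSO-treated cells, and DMSO input DNA was sequenced alongside. The authors called peaks on the 3 libraries together, so each list is 1 pooled value with no replicate error and no difference between antibodies could be tested across samples. Intervals below are 95% intervals that count regions only. They say nothing about the spread between cultures. The MBD2 list from DMSO cells, with 15991 regions, and the TET1 and MBD3 lists from cells given 30 µM BPK25 for 72 h, a compound known here by its code name, were used to describe the same regions further.

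TET1 is a dioxygenase that oxidises methylated cytosine and so starts the removal of DNA methylation. MBD3 is a methyl-CpG-binding-domain protein and a core subunit of NuRD, a complex that couples nucleosome remodelling to histone deacetylation, in which MBD2 takes its place as the alternative subunit. The mammalian MBD3 domain binds methylated DNA weakly compared with that of MBD2. CTCF binds DNA through zinc fingers, insulates neighbouring domains and anchors chromatin loops. The study, by its title, is concerned with NuRD where CTCF binds.

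Depth could be read from the lists only in relative terms. The pileup is the number of sequenced fragments stacked at a summit, and the deposited fold divides it by the local background after 1 is added to each. Whole pileups could be recovered for all but 20 TET1 and 26 MBD3 regions. The smallest local background in a list, its floor, was 5.68 fragments for TET1, 4.72 for MBD3, 4.35 for CTCF and 3.77 for MBD2. Of these lists the TET1 list thus had the highest floor and the fewest regions. Weakest entries had a −log10 p of 4.17 for TET1 and 4.08 for MBD3. TET1 regions covered 1.91 Mb with a median fold of 3.37, and MBD3 regions 2.66 Mb with a median fold of 3.84.

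Most TET1 regions lay on an MBD3 region, and nearly all of those lay on a CTCF region too. Of the TET1 list, 4574 regions (63.4%, 62.3% to 64.5%) were shared, and of the MBD3 list 4567 (45.1%, 44.1% to 46.0%). The overlaps formed 4578 pairs, nearly all of them one to one: 4 TET1 regions met several MBD3 regions and 11 MBD3 regions met several TET1 regions. TET1-specific regions numbered 2637 (36.6% of the TET1 list) and MBD3-specific regions 5570 (54.9% of the MBD3 list).

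A CTCF region was present at 82.1% of all TET1 regions and 80.0% of all MBD3 regions. Among shared TET1 regions the share was 94.3% (93.63% to 94.97%), against 60.9% (59.1% to 62.8%) of TET1-specific regions. Among shared MBD3 regions it was 94.4% (93.64% to 94.98%), against 68.2% (67.0% to 69.4%) of MBD3-specific regions. The largest TET1 class was shared with CTCF, with 4315 regions (59.8%), followed by specific with CTCF (1607, 22.3%), specific without CTCF (1030, 14.3%) and shared without CTCF (259, 3.59%). For MBD3 the same classes held 4309 (42.5%), 3799 (37.5%), 1771 (17.5%) and 258 regions (2.55%). TET1 and MBD3 together away from a listed CTCF region were thus the rarest class in both lists.

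**Figure D1:**
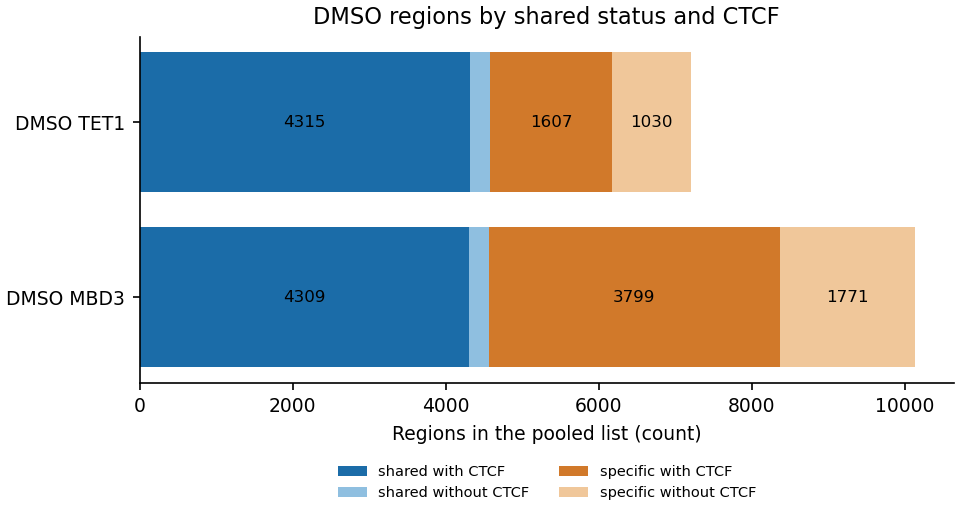
Regions of the DMSO TET1 and MBD3 lists, with the count of regions on the horizontal axis and each bar divided into 4 classes by overlap with the other list and with a DMSO CTCF region. Regions shared with CTCF form the largest class in both lists (4315 and 4309) and those shared without CTCF the smallest (259 and 258).

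Read from the side of CTCF, 72.9% (71.7% to 74.0%) of the TET1 regions with CTCF were shared with MBD3, against 20.1% (18.0% to 22.4%) of those without. For MBD3 the corresponding shares were 53.1% (52.1% to 54.2%) and 12.7% (11.3% to 14.2%). Sharing was also more frequent among taller regions, and regions with CTCF were taller. The TET1 list was therefore divided into quartile groups by recovered pileup. With CTCF, the shared share went from 50.6% in the lowest quartile group through 64.7% and 75.4% to 89.9% in the highest. Without CTCF it went from 11.1% through 30.5% and 40.9% to 43.2%, the last resting on 44 regions (29.7% to 57.8%). In the MBD3 list the shares were 35.8%, 42.7%, 54.4% and 70.3% with CTCF, and 7.97%, 16.3%, 22.6% and 22.3% without. Regions with CTCF were shared more often in every quartile group of both lists. Pileup was not equal within a group: for TET1 the lowest spanned 17 to 30 fragments and the highest 50 to 3401.

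**Figure D2:**
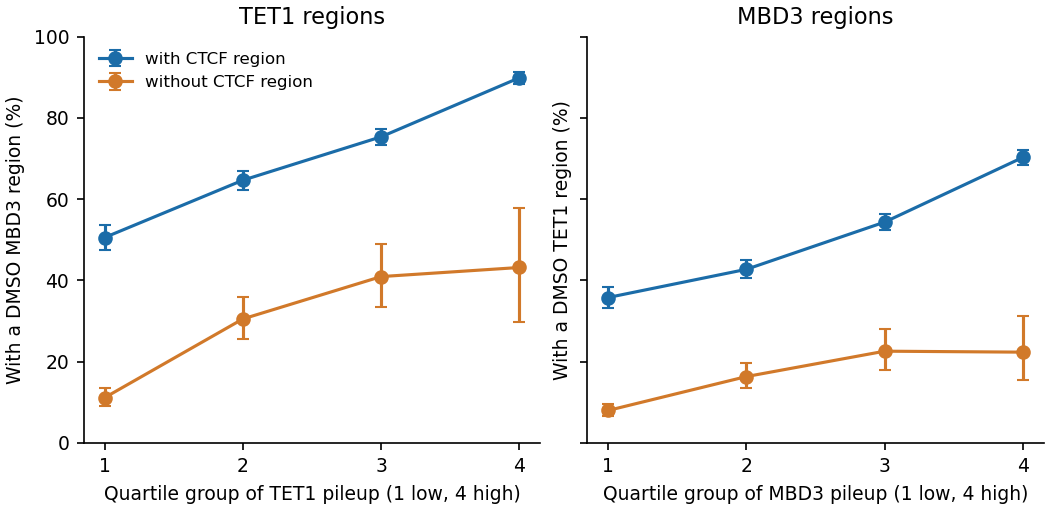
Percentage of TET1 regions with an MBD3 region and of MBD3 regions with a TET1 region, by quartile group of recovered pileup (fragments at the summit), for regions with and without a DMSO CTCF region; bars are 95% Wilson intervals over regions. The series with CTCF lies above the series without in each quartile group, from 50.6% against 11.1% to 89.9% against 43.2% for TET1.

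The split by CTCF depends on how many CTCF regions are listed. With the MBD3 and CTCF lists each shortened to 7211 regions by highest −log10 q, the length of the TET1 list, a CTCF region was present at 76.3% of shared and 23.6% of TET1-specific regions. Under the same shortening 53.8% of TET1 regions and 53.7% of MBD3 regions were shared. These shares are nearly equal by construction, since the lists then have 1 length and the overlaps are nearly one to one. Regions labelled as lacking CTCF may hold CTCF below the threshold of its list, and the pileup there was not analysed here.

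MBD2, the alternative NuRD subunit, followed the same division. It was listed at 79.5% of all TET1 regions, at 91.8% of the shared and at 58.0% of the TET1-specific ones. Of all MBD3 regions 75.8% had an MBD2 region, with 91.9% among the shared and 62.6% among the MBD3-specific ones. By class of TET1 regions, MBD2 was present at 93.1% of those shared with CTCF, 76.6% of those specific with CTCF, 71.0% of those shared without CTCF and 28.9% of those specific without CTCF. Shared regions outside the CTCF list were therefore mostly in the MBD2 list (184 of 259), and TET1-specific regions outside it mostly were not (298 of 1030).

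Both neighbours together gave the largest share of TET1 regions with MBD3. That share was 76.5% (4017 of 5248) where CTCF and MBD2 were listed, 44.2% (298 of 674) with CTCF alone, 38.2% (184 of 482) with MBD2 alone and 9.29% (75 of 807) with neither. For MBD3 regions with TET1 it was 58.4% (4011 of 6866), 24.0% (298 of 1242), 22.7% (185 of 816) and 6.02% (73 of 1213). The intervals of CTCF alone and MBD2 alone overlapped, at 40.5% to 48.0% against 33.9% to 42.6% for TET1 regions. For MBD3 regions they were 21.7% to 26.4% against 19.9% to 25.7%. Overlapping intervals do not show that the shares are equal, and their difference was not tested. Pileup differed between these groups: 610 of the 807 TET1 regions with neither were in the lowest quartile group. There the TET1 shares were 58.1%, 30.0%, 25.1% and 6.72% in the same order. In the highest quartile group they were 90.3%, 80.0%, 65.4% (of 26 regions) and 11.1% (of 18 regions). The 4 lists come from the same cells and the same treatment, and a list against an unrelated target was not analysed here.

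The same order was seen from the CTCF list. Of its regions 4312 (24.7%) met both TET1 and MBD3, 1598 (9.16%) met TET1 alone, 3787 (21.7%) met MBD3 alone and 7743 (44.4%) met neither. Median CTCF fold was 5.24 where both were listed, 4.42 with TET1 alone, 4.44 with MBD3 alone and 3.90 with neither. Median CTCF width was 293, 253, 253 and 234 bp. An MBD2 region was present at 93.1%, 76.6%, 75.2% and 47.3% of these CTCF regions. CTCF regions with TET1 alone and with MBD3 alone had nearly equal fold and width, while their median CTCF pileup was 37 (37 to 38) and 41 (40 to 41) fragments.

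Strength followed class within each list. Median TET1 pileup was 44 fragments in regions shared with CTCF, 35 in those specific with CTCF, 34 in those shared without CTCF and 26 in those specific without CTCF. Median TET1 fold was 3.58, 3.24, 3.21 and 2.87 in the same order, and median −log10 q 9.50, 6.22, 5.78 and 3.14. Median MBD3 pileup was 45, 37, 33 and 27 fragments and median MBD3 fold 4.29, 3.77, 3.73 and 3.18. Regions specific without CTCF thus lay closest to the detection limit in both lists. The median distance to the nearest region of the other list was 68.7 kb for TET1-specific and 96.9 kb for MBD3-specific regions. Such a region lay within 1 kb of 56 TET1-specific (2.13%) and 94 MBD3-specific regions (1.69%). Specific regions exclude overlaps by definition, and the lists searched differ in length, with 10137 MBD3 and 7211 TET1 regions. A distance expected from list length was not calculated.

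Sharing did not rise evenly with fold. With the TET1 list divided into deciles of fold, 51.9% of the lowest decile were shared, 43.6% of the next and 85.9% of the highest. In the MBD3 list the shares were 32.1%, 24.8% and 78.9%. A background above 3 times the floor was found at 16.4% of TET1 regions shared with CTCF and 7.47% of those specific with CTCF. Without CTCF it was found at 6.18% of shared and 3.01% of specific TET1 regions. The deciles of fold were not divided by background, so its part in their shares was not tested. Without all regions above 3 times the floor 59.5% of TET1 and 42.4% of MBD3 regions were shared.

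At the shared pairs the summits of TET1 and MBD3 nearly coincided. Over all 4578 pairs the median distance was 13 bp (12 to 13 bp), 91.3% of pairs lay within 50 bp and 98 had both summits on the same base. The 4323 pairs in which either region met CTCF had a median of 13 bp (12 to 13 bp) and quartiles of 6 and 25 bp. The 255 pairs without CTCF had a median of 17 bp (15 to 19 bp) and quartiles of 8 and 34.5 bp. Within 50 bp lay 91.7% (90.9% to 92.5%) of the pairs with CTCF and 83.1% (78.1% to 87.2%) of those without. Within 10 bp lay 43.2% and 31.8%.

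The distance was smaller at taller pairs. For this the pairs themselves were divided into 4 groups of nearly equal number by their TET1 pileup, apart from the quartile groups of the whole list. With CTCF the median distance was 22 bp in the lowest group of pairs, then 15 and 11 bp, and 8 bp in the highest. Without CTCF the medians were 22.5 bp (18 to 31 bp, 140 pairs), 16.5 bp (12 to 19 bp, 72 pairs), 9 bp (4 to 13 bp, 35 pairs) and 8 bp (4 to 18 bp, 8 pairs). The intervals with and without CTCF overlapped in each group, and the upper groups held few pairs without CTCF. Whether the difference over all pairs remains at equal pileup was not tested. Of the 255 pairs without CTCF, 140 were in the lowest group of pairs.

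**Figure D3:**
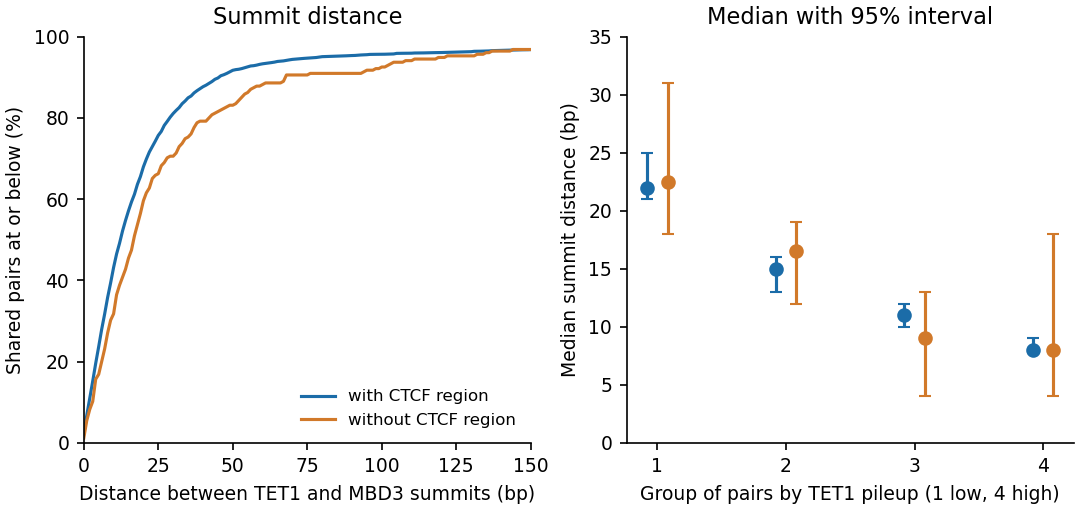
Distance in bp between TET1 and MBD3 summits of shared pairs, shown as the cumulative percentage of pairs with and without a DMSO CTCF region and as medians in 4 groups of the pairs by TET1 pileup with 95% order-statistic intervals. The pairs without CTCF lie further apart in all (17 against 13 bp), while within each group of pairs the 2 intervals overlap.

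Distant summits lay mostly in regions with several summits. Of the pairs, 145 (3.17%) had summits more than 150 bp apart, and in 92 of these (63.4%) a region held several summits, against 218 of the other 4433 pairs (4.92%). Median widths were 385 bp for TET1 and 440 bp for MBD3 in the distant pairs, and 240 and 250 bp in the rest. Regions that overlap with summits so far apart are selected towards wide ones. Taking the nearest sub-peak summits instead of the strongest brought the median distance of the distant pairs to 70 bp and put 85 of them within 150 bp. By construction this distance can only stay equal or fall, since the strongest summits are among those compared. A CTCF region was present at 94.5% of distant and 94.4% of near pairs.

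All 3 summits lay close together where TET1, MBD3 and CTCF overlapped. Over 4317 such triples the median distance was 13 bp from TET1 to MBD3, 12 bp from TET1 to CTCF and 10 bp from MBD3 to CTCF. In 3763 of them (87.2%, 86.1% to 88.1%) all 3 summits fell within 50 bp. Specific regions with CTCF were centred on it almost as closely: the median distance to the CTCF summit was 17.5 bp (16 to 18 bp) for TET1-specific against 12 bp for shared TET1 regions. For MBD3 the medians were 13 bp (12 to 13 bp) in specific and 10 bp in shared regions. MBD3-specific regions with CTCF thus had the same median distance to CTCF as TET1 had to MBD3 in shared pairs.

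Shared regions were wider than specific ones in both lists. Shared status was set by an overlap of 1 bp or more, which wide regions can reach more easily. The part of this in the difference in width was not tested. Median width was 241 bp (240 to 243 bp) in shared and 225 bp (222 to 227 bp) in specific TET1 regions, and 251 bp (249 to 254 bp) in shared and 225 bp (224 to 226 bp) in specific MBD3 regions. The narrowest regions were 194 bp in the TET1 and 192 bp in the MBD3 list in every class, so specific regions sat close to the least width listed. By class, TET1 medians were 243 bp shared with CTCF and 224 to 225 bp in the other classes. MBD3 medians were 252 bp shared with CTCF, 233 bp (226 to 241 bp) shared without CTCF, 226 bp specific with CTCF and 222 bp specific without CTCF. Without CTCF, the shared and specific TET1 intervals overlapped (220 to 231 bp against 221 to 228 bp).

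Wide regions were mostly shared. Regions over 500 bp made up 3.94% of shared TET1 regions (180) against 0.910% of TET1-specific ones (24), and 4.29% of shared MBD3 regions (196) against 0.826% of MBD3-specific ones (46). The widest shared regions spanned 3050 bp for TET1 and 2884 bp for MBD3, and the widest specific ones 818 and 1163 bp. Several summits were listed in 4.24% of shared and 1.78% of specific TET1 regions, and in 4.49% and 1.42% of MBD3 regions. Among regions with 1 summit the medians were still 239 against 224 bp for TET1 and 248 against 224 bp for MBD3.

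Before division by CTCF, the difference in width was present in each quartile group of pileup. From the lowest to the highest quartile group of TET1 pileup, shared regions had median widths of 242, 231.5, 234 and 259 bp and specific regions 227, 222.5, 222 and 226 bp. For MBD3 they were 244, 235, 243.5 and 269 bp shared and 225, 221, 224 and 231 bp specific. Before division by CTCF, shared regions were wider in every quartile group, most so in the highest. This held for regions with CTCF in both lists. Without CTCF the TET1 medians were 240, 217, 221 and 240 bp shared and 225.5, 224, 219.5 and 214 bp specific. Their intervals overlapped in every group, and at 217 against 224 bp the shared regions were narrower. MBD3 medians without CTCF were 240, 233, 220 and 245 bp shared and 224, 217, 216 and 224.5 bp specific. Their intervals were apart only at 233 against 217 bp.

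**Figure D4:**
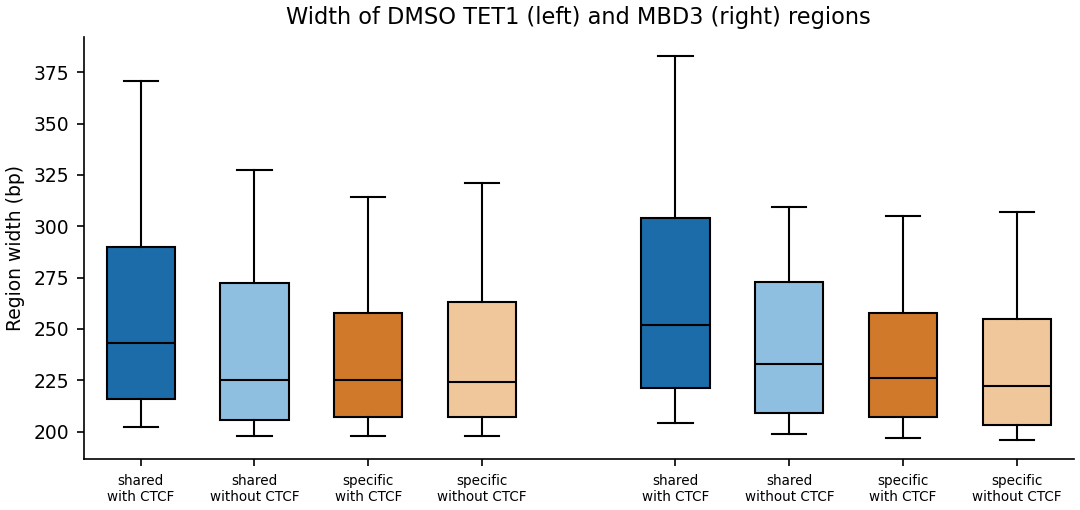
Region width in bp for the 4 classes of the TET1 list (left) and the MBD3 list (right), with the median as a line, the box from the 25th to the 75th percentile and whiskers from the 10th to the 90th percentile of regions. Regions shared with CTCF have the highest median in both lists (243 and 252 bp), and the other classes lie between 222 and 233 bp.

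Within pairs the regions of both proteins covered almost the same bases. The median overlap was 99.3% of the shorter region with CTCF and 97.1% without. The MBD3 region was the wider one in 2454 of the 4323 pairs with CTCF (56.8%) and the TET1 region in 1837 (42.5%), with a median difference, TET1 minus MBD3, of -7 bp (-9 to -6 bp). Without CTCF, MBD3 was wider in 126 pairs and TET1 in 127, and the median difference was 0 bp (-8 to 4 bp). Median TET1 and MBD3 pileups were both 44 fragments in pairs with CTCF, and 34 and 33 fragments in pairs without. MBD3 over TET1 pileup had a median of 1.00 with CTCF and 0.96 without, and 80% of all pairs lay between 0.778 and 1.29. Only 103 pairs (2.26%) were over 1.5 times higher in MBD3 and 111 (2.44%) over 1.5 times higher in TET1. These are raw fragment counts, and the floors of the lists differ. With each pileup divided by the floor of its list, MBD3 over TET1 had a median of 1.20 with CTCF and 1.16 without. Raw and divided pileups thus give different ratios, and library depth is unknown.

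The local backgrounds of both lists moved together at the same bases. At the 98 pairs with coinciding summits the MBD3 background divided by the TET1 background had a median of 0.835. The ratio was within 0.1% of the median in 62 pairs and within 5% in 95, and the floors of the lists had a ratio of 0.831. The labels name 1 set of DMSO input libraries, and which of them served as control for each list is not stated in the sources used here.

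BPK25-treated cells gave short lists, and the DMSO regions that these met were mostly shared ones. Of all DMSO TET1 regions 6.91% (498) had a TET1 region under BPK25. By class this was 10.6% of those shared with CTCF (456), 1.74% of those specific with CTCF (28), 2.32% of those shared without CTCF (6 of 259) and 0.777% of those specific without CTCF (8 of 1030). From the lowest to the highest quartile group of the TET1 list by pileup, 2.87%, 4.05%, 5.30% and 20.5% of shared regions met a BPK25 TET1 region, against 0.415%, 1.36%, 1.82% and 5.94% of specific ones (5, 10, 9 and 12 regions). Pileups still differ within these groups, the highest of which spans 50 to 3401 fragments. At a background above 3 times the floor, 19.2% of TET1 regions (167 of 871) met a BPK25 TET1 region. At the others with a recovered pileup the share was 5.14% (325 of 6320). Of all DMSO MBD3 regions 1.71% (173) had an MBD3 region under BPK25. The counts by class were 138 shared with CTCF (3.20%), 33 specific with CTCF (0.869%), 2 specific without CTCF (0.113%) and 0 of 258 shared without CTCF. Most of the 173, 131 regions, had a local background above 3 times the floor, where 10.5% of MBD3 regions met one. At a background of at most 3 times the floor the share was 0.293% (26 of 8859), with 0.618% of those shared with CTCF (22 regions) and 0.0889% of those specific with CTCF (3 regions).

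The TET1 list under BPK25 also met MBD3 regions of DMSO cells, 598 of them (5.9% of all), with 10.1% of the shared and 2.46% of the MBD3-specific ones (137). BPK25 MBD3 regions met 2.02% of DMSO TET1 regions (146). Of these 105 had a background above 3 times the floor, and at the other TET1 regions with a recovered pileup the share was 0.427% (27 of 6320). The BPK25 lists held 777 TET1 and 374 MBD3 regions, with a least −log10 p of 4.82 and 5.30. The floor of the BPK25 TET1 list was 1.16 fragments against 5.68 in DMSO. For the BPK25 MBD3 list it was 0.374 against 4.72 in DMSO, with no pileup recovered for 166 of its 374 regions. The part of these lower floors in the shares was not tested.

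Both proteins were spread over all 23 chromosomes compared, 1 to 22 and X, which held 7141 TET1 and 10024 MBD3 regions. Chromosome 1 held the most, 763 TET1 regions (10.7%) and 1066 MBD3 regions. The TET1 list had 71.2 regions per 100 MBD3 regions over these chromosomes, from 59.9 on chromosome 16 to 81.1 on chromosome 13. TET1-specific regions per 100 MBD3-specific ones ran from 33.1 on chromosome 22 to 62.6 on chromosome 13.

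The shared share of TET1 regions was 63.32% over these chromosomes. It ranged from 47.3% on chromosome 21 (34.7% to 60.2%, 55 regions) to 71.2% on chromosome 17 (66.8% to 75.2%). Intervals lay above the overall value on chromosomes 17 and 19 (70.3%, 64.5% to 75.6%). They lay below it on chromosome 21 and, barely, on chromosome 3 (58.0%, 52.59% to 63.27%). Intervals were not adjusted for the 23 chromosomes compared in each list. For MBD3 the overall share was 45.0%, from 32.1% on chromosome 21 to 53.4% on chromosome 17 (49.4% to 57.4%). Its interval was above the overall value on chromosome 17 alone and below it on chromosomes 8 (38.7%), 9 (36.4%), 16 (35.8%) and 21. Chromosome 17 was thus high and chromosome 21 low in both lists, which share these pairs.

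CTCF overlap also varied between chromosomes. It ranged from 75.6% to 89.6% of TET1 regions, with intervals above the overall value on chromosomes 17, 19 and 22 and below it on chromosomes 4, 5 and X. It ranged from 74.1% to 85.4% of MBD3 regions, above on chromosomes 12, 17 and 19 and below on chromosomes 4, 7, 9 and 13. In both lists the shared share was higher with CTCF than without on all 23 chromosomes, and the 2 intervals were apart on each of them. On chromosome 13, for example, 76.3% of TET1 regions with CTCF were shared against 7.27% of those without. The median summit distance of pairs was between 12 and 18 bp on every chromosome.

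A share calculated for each chromosome from the CTCF overlap and pileup quartile groups of its regions was close to the observed one on some of these chromosomes and further from it on others. For TET1 it gave 70.3% on chromosome 17 against 71.1% observed among regions with a recovered pileup, and 59.2% on chromosome 3 against 58.0%. It gave 65.2% on chromosome 19 against 70.2%, and 57.6% on chromosome 21 against 47.3%. For MBD3 it gave 51.1% on chromosome 17 against 53.3%, and 43.4% on chromosome 16 against 35.8%.

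**Figure D5:**
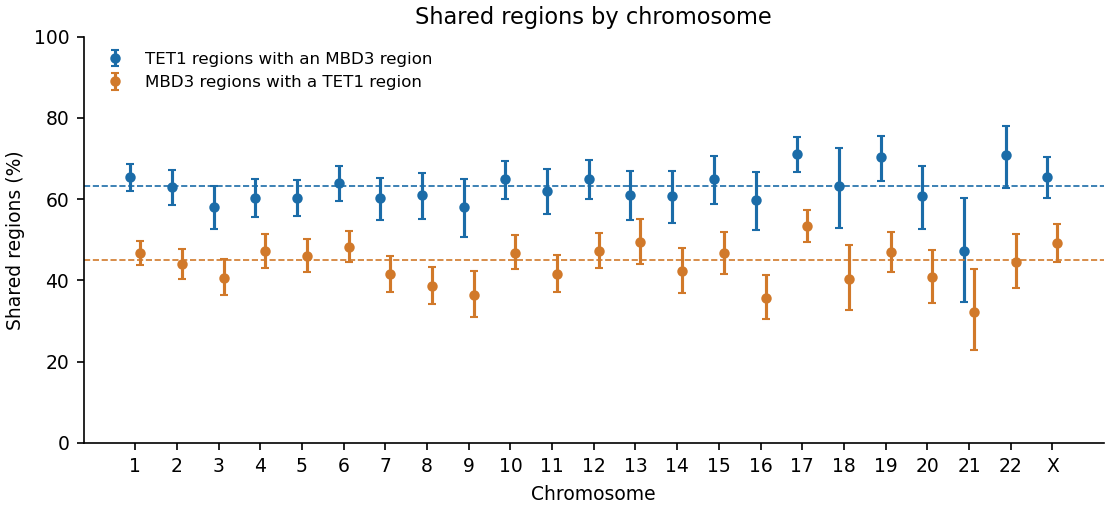
Percentage of TET1 regions with an MBD3 region and of MBD3 regions with a TET1 region on chromosomes 1 to 22 and X, with 95% Wilson intervals over regions; dashed lines mark the value over all 23 chromosomes. The TET1 shares run from 47.3% on chromosome 21 to 71.2% on chromosome 17 and the MBD3 shares from 32.1% to 53.4% on the same chromosomes.

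Outside these chromosomes the lists held 70 TET1 and 113 MBD3 regions on other sequences of the build. Of these 74.3% (63.0% to 83.1%) of TET1 and 46.0% of MBD3 regions were shared. Their median fold was low, 1.66 and 1.86, and their median background 33.7 and 39.8 times the floor. Leaving them out moved the shared shares to 63.3% and 45.0%. Most of the 70 TET1 regions lay on chr9_gl000199_random, where 26 of 29 were shared, and chrUn_gl000226, where 14 of 14 were shared. For MBD3, 26 of 52 and 14 of 18 regions were shared on the same sequences. Median TET1 background there was 52.8 and 137 times the floor. The TET1 share of 74.3% thus rests largely on these sequences.

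The strongest regions of each class, ranked by the deposited fold in build hg19, show these patterns at single sites. Those named on chromosomes 9 and 18, and the pair at chr7:302920-303977, lay in the first 1 Mb of their chromosome. That stretch of chromosomes 1 to 22 and X held 61 TET1 and 82 MBD3 regions. Shared with CTCF, the TET1 region chr9:11221-11669 had a fold of 16.95 and a pileup of 137 fragments, and the MBD3 region chr9:11255-11630 a fold of 17.5 and a pileup of 122, with summits 5 bp apart. The TET1 region chr15:102519729-102520034 (fold 12.6) and the MBD3 region chr15:102519418-102520044 (fold 15.4) had summits 2 bp apart. Both pairs were of nearly equal pileup, 94 and 99 fragments in the second.

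Specific regions with CTCF reached lower folds. The TET1-specific region chr18:839400-839634 had a TET1 fold of 6.48, a CTCF fold of 6.52 and an MBD2 fold of 6.29. At chr15:51178118-51178393 the TET1 fold was 6.34, the CTCF fold 8.63 and the MBD2 fold 7.82. Among MBD3-specific regions, chr1:147994269-147994498 had an MBD3 fold of 8.57 and a CTCF fold of 7.48 with no MBD2 region in DMSO. The MBD3-specific region chr16:46707354-46707593 had an MBD3 fold of 8.56, a CTCF fold of 10.0 and an MBD2 fold of 9.85. MBD2 was listed at 3 of these 4 sites, and at 76.6% of all TET1-specific and 75.2% of all MBD3-specific regions with CTCF.

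Without CTCF, the leading shared pairs were weaker. The TET1 region chr3:160638896-160639136 (fold 5.39, pileup 35) and the MBD3 region chr3:160638916-160639110 (fold 7.17, pileup 40) had summits 12 bp apart and met no other list. The TET1 region chr2:212610132-212610359 (fold 4.94) and the MBD3 region chr2:212610110-212610328 (fold 6.68) had summits 24 bp apart and an MBD2 region of fold 7.34. TET1-specific regions without CTCF were led by chr16:85454398-85454664, with a fold of 6.37 and no region in any other list, and chr7:107365683-107365933, with a fold of 5.88 and an MBD2 fold of 4.67. MBD3-specific regions without CTCF were led by chr4:91278364-91278586 (fold 7.15, MBD2 fold 7.41) and chr10:94194864-94195114 (fold 6.84, MBD2 fold 5.09). Over all regions of these classes, MBD2 was listed at 71.0% of shared TET1, 28.9% of TET1-specific and 35.6% of MBD3-specific regions without CTCF.

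The most distant summits among the 414 pairs with a fold of 5 or more in both lists lay in regions present in many lists. On chromosome 7 the TET1 region chr7:302920-303977, 1058 bp wide, and the MBD3 region chr7:302912-304067, 1156 bp wide, had summits 375 bp apart and met regions of 8 of the 12 lists. On chromosome 1 the TET1 region chr1:149513743-149514201 and the MBD3 region chr1:149513767-149514193 had summits 239 bp apart and were listed in 6. Genes and sequences at these sites were not analysed here, since no annotation of build hg19 was used.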

How the data were processed

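Libraries from immunoprecipitated and input DNA of HEK293T cells were grouped by the treatment and antibody in their labels. Reads were processed with build hg19, and the tools included Bowtie2 2.3.4 and MACS2 2.1.2, per the submitters' processing notes. How the peak caller was set is not given in the sources here. In the deposited lists the authors give each peak a fold (the ratio of fragment pileup to background), a −log10 p and a −log10 q, and where in the peak its summit lies. These are the authors' values. Regions were ranked and filtered by them within a list, folds of several lists at a named site are given as descriptions, and pileups solved from them were set against each other at shared pairs.

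A region took the values of its sub-peak of largest −log10 p. A pair counted as with CTCF when either region met a CTCF region. Pileups were solved from fold and Poisson −log10 p to within 0.02%, up to a −log10 p of 150. Shares carry Wilson intervals and medians binomial order-statistic intervals, both of 95%, and they cover counting of regions only. Library depth is unknown from these lists, and a floor is only a property of a list. The labels do not state whether the 3 libraries of a group were separate cultures. Lists from IAA-treated cells entered only the number of lists at a named site, and signal tracks were not used here.

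Regions could be named if they passed a −log10 q of 5 and were on chromosomes 1 to 22 or X. In each of 6 classes the 2 of highest fold were taken, shared pairs being ranked by the sum of their ranks, and so were the 2 pairs of largest summit distance with a fold of 5 or more in both lists. The same rule among regions with a background of at most 3 times the floor named the same regions. Members, lists and the pileup quartile groups were chosen with earlier results of these data known. Scripts were tested on simulated data and ran in Python 3.11.15 with SciPy 1.17.1, numpy 2.4.6 and pandas 2.3.3.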

Additional observations from a re-analysis of the deposited data

How the results depend on the processing

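No paired analysis was possible because each group was 1 pooled list, and for the same reason no replicate could be left out. Under every alternative run for them, shared regions had the higher share with CTCF and the larger median width than specific ones in both lists, and pairs with CTCF the smaller median summit distance. Pileup was not held fixed in any of these alternatives. In the 4 groups of pairs by TET1 pileup the median distances were 22, 15, 11 and 8 bp with CTCF. Without CTCF they were 22.5, 16.5, 9 and 8 bp, with overlapping intervals in each group. Of the 12 results recomputed, 33 of 56 alternative values stayed within the interval of the main value, among them all 12 on chromosomes 1 to 22 and X, all 8 with an overlap of 50% of the shorter region and both with the nearest sub-peak summits. With a −log10 q of 5 or more in every list, 70.2% of TET1 regions were shared. CTCF was then present at 95.6% of shared and 75.3% of specific TET1 regions and at 95.5% of shared and 77.3% of specific MBD3 regions, and the median summit distance was 11 bp with and 13 bp without CTCF. Requiring summits within 150 bp left 61.5% of TET1 and 43.7% of MBD3 regions shared. With the MBD3 and CTCF lists shortened to 7211 regions, which left a least −log10 q of 6.15 and 12.8, shared shares were 53.8% and 53.7%. CTCF was then present at 76.3% of shared and 23.6% of specific TET1 regions and at 76.3% of shared and 47.1% of specific MBD3 regions, with a median distance of 10 bp with CTCF. Fewer CTCF regions were listed there by construction. With a background of at most 3 times the floor, 59.5% of TET1 and 42.4% of MBD3 regions were shared. CTCF was then present at 92.9% of shared TET1, 92.9% of shared MBD3 and 66.2% of MBD3-specific regions, and median widths were 239 bp for shared TET1 and 248 bp for shared MBD3 regions. The cause of these other shifts was not tested. The depth of the lists limits detection: a region called specific may hold the other protein below its threshold.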
